A study of Drosophila melanogaster with 6 samples.

Results

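The named genes of the fourth chromosome are 33 genes of *D. melanogaster* that were chosen by symbol from the deposited table of testis expression, which lists 11491 genes. All 33 symbols were found, and all lie on chromosome 4 in the Ensembl annotation of release 115, which has the coordinates of dm6. The table holds 78 genes of that chromosome, so that 45 others stood beside the named ones. Poly(A) RNA was sequenced from whole testes of adult males, kept in PBS before extraction, in 3 *Zeus* KO libraries and 3 libraries of a control injection line. *Zeus* (*Rcd-1r*) is a young retrogene copy of *Caf40* (*Rcd-1*), a subunit of the CCR4–NOT complex. The paper names stock BDSC #25710 for the injected embryos. This stock carries an integrase transgene driven by the *nos* promoter, the landing site attP2 and alleles of *y*, *sc*, *v* and *sev*. The paper does not name the stock of the control injection line separately. The *Zeus* KO was made with a Cas9 protein and guide RNAs that leave small frameshift deletions in the coding sequence. The labels call the control wild type. The age of the males, and whether the 3 *Zeus* KO libraries came from the same line, are not given in the sources used here.

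The fourth chromosome, or dot chromosome, is the smallest of the fly and is largely packaged as heterochromatin marked by HP1a. Its genes are nevertheless transcribed, and the protein Pof binds their nascent RNA and raises their output, while the methyltransferase encoded by *egg* (*Setdb1*) deposits H3K9 methylation there. The chromosome does not normally recombine in meiosis, and it has been proposed to derive from an ancestral sex chromosome. Many of its named genes are known from the embryo, the eye and the nervous system rather than from the testis. The study also looked at Zeus binding by chromosome, which was not analysed here, and the comparison asks whether the expression of these genes differed once *Zeus* was disrupted.

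The deposited table gives, for each gene, the authors' mean of size-factor-normalized reads over the libraries of a group (called the group mean below). A read of a given library adds a fixed weight to every such mean, and each mean up to 8000 could be split into whole reads of the 3 libraries in 1 way. The single libraries were solved in this manner for 11178 genes, the 33 named genes among them. They carry no replicate number and are called a, b and c in falling order of size factor. The solved genes held between 7333614 and 10960507 reads per library, and the 313 genes that were not solved held 36.2% of the normalized reads. Whether the libraries of a group came from separate flies is not stated beyond the term biological triplicate. The p-values rest on the spread between these libraries, which limma's moderated test draws toward that of genes of similar level. *Zeus* itself held 318.7, 337.7 and 380.4 normalized reads in control and 269.0, 268.8 and 328.3 in *Zeus* KO, so that the groups overlapped. The deletions are described as small frameshifts, which need not lower the read count, and which allele the reads came from was not tested. Markers of spermatocytes and spermatids were present in both groups, with summed group means of 5812 and 147919 normalized reads in control and no marker at 0.

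None of the 33 named genes was called in *Zeus* KO against control. A gene was called at an adjusted p under 0.05 by limma's moderated test together with a 1.5-fold difference or more. These limits were met by 453 of 11164 tested genes (4.06%, with 2.16% higher and 1.9% lower), and by 297 without control library c. The smallest adjusted p of a named gene was 0.0906, for *Zip102B*, while 5.04% of all tested genes had one under 0.05. Most named genes nevertheless had slightly fewer reads in *Zeus* KO. Of the 33, 25 had a log2 fold change below 0 and 8 above it, against 49.5% below 0 among all tested genes. The number below 0 was 19 without *Zeus* KO library a and 21 without control library a, and the sign of 12 of the 33 turned under at least 1 alternative. Their median log2 fold change was -0.11, with the middle 50% between -0.30 and -0.0034, while the median of all tested genes was 0.0031. The median of the named genes was -0.036 without control library a, -0.040 without *Zeus* KO library a and -0.069 without *Zeus* KO library b, and its lowest value was -0.16 without *Zeus* KO library c. An unadjusted p under 0.05 was found for 3 of the 33, all lower in *Zeus* KO, where 9.71% of all tested genes were lower and 9.16% higher at that limit, 18.9% in all. That number was 6 without control library a, where 24.5% of all tested genes passed, 5 without control library b, where 14.5% passed, and 5 without *Zeus* KO library a, where 23.7% passed. The groups stood apart in 5 of the 33 (15.2%), each time with *Zeus* KO below. Over all tested genes they stood apart in 23.4%, with *Zeus* KO below in 11.6% and above in 11.8%. Whether these shares differ was not tested.

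Each gene was also set against the 500 genes with the nearest control mean, by the log2 ratio of its group means. Of the 33 named genes, 24 lay under the 50th percentile of these neighbours and 9 above it. There were 11 genes under the 25th percentile, 2 of them under the 5th, and 1 gene over the 75th. The lowest was *onecut* at the 3.8th percentile, followed by *Zip102B* at the 4.0th and *yellow-h* and *mav* at the 5.8th, and the highest was *gw* at the 86.8th.

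**Figure D1:**
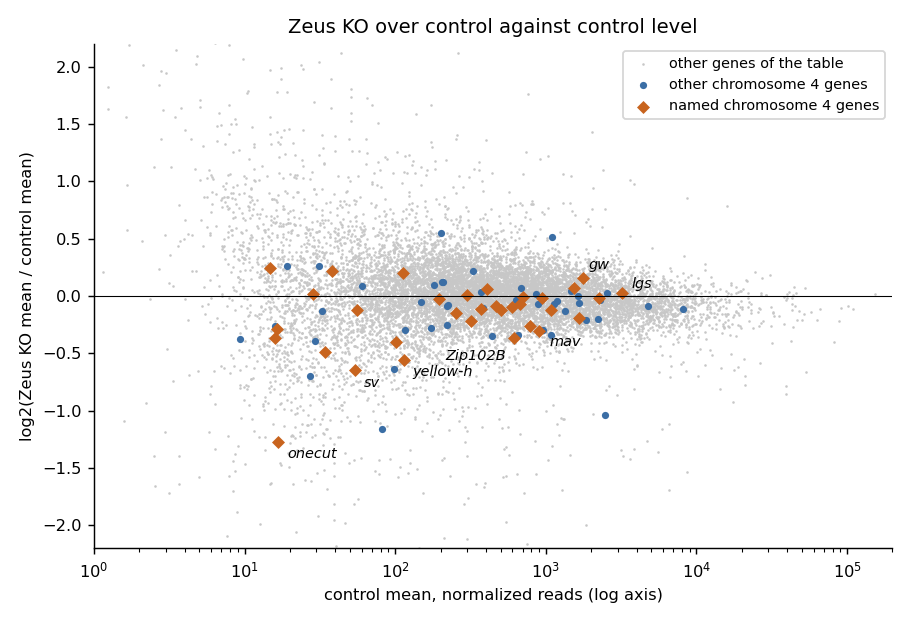
Log2 ratio of the Zeus KO mean to the control mean (vertical) against the control mean in normalized reads (horizontal, log axis) for the named genes (diamonds), the other chromosome 4 genes (large points) and all other genes of the table (grey), cut at 2.2 on either side. Of the 33 named genes, 24 lay below the middle of the 500 genes with the nearest control mean.

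The levels of the named genes spanned a wide range. Per kilobase of annotated exon, the control mean was highest for *Rad23*, a shuttle factor of the proteasome that also acts in DNA repair, at 816 normalized reads. Next came *lgs* at 602.3, *PIP4K* at 527 and *Crk* at 439. The lowest levels per kilobase were those of *onecut* at 2.48, *zfh2* at 3.04, *toy* at 4.19 and *ey* at 4.28. By this measure these eye and neural regulators were the least expressed, closely followed by *Syt7* at 4.43. By control mean without regard to length, *Syt7* was the lowest at 14.7 normalized reads. *onecut* had 3 to 25 whole reads per library. In the fit, 24 genes with a control mean of at least 100 normalized reads had standard errors (SE) of the log2 fold change between 0.0924 and 0.247. For the 9 below that level the errors ran from 0.289 to 0.538, so that their fold changes were the least precise.

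**Figure D2:**
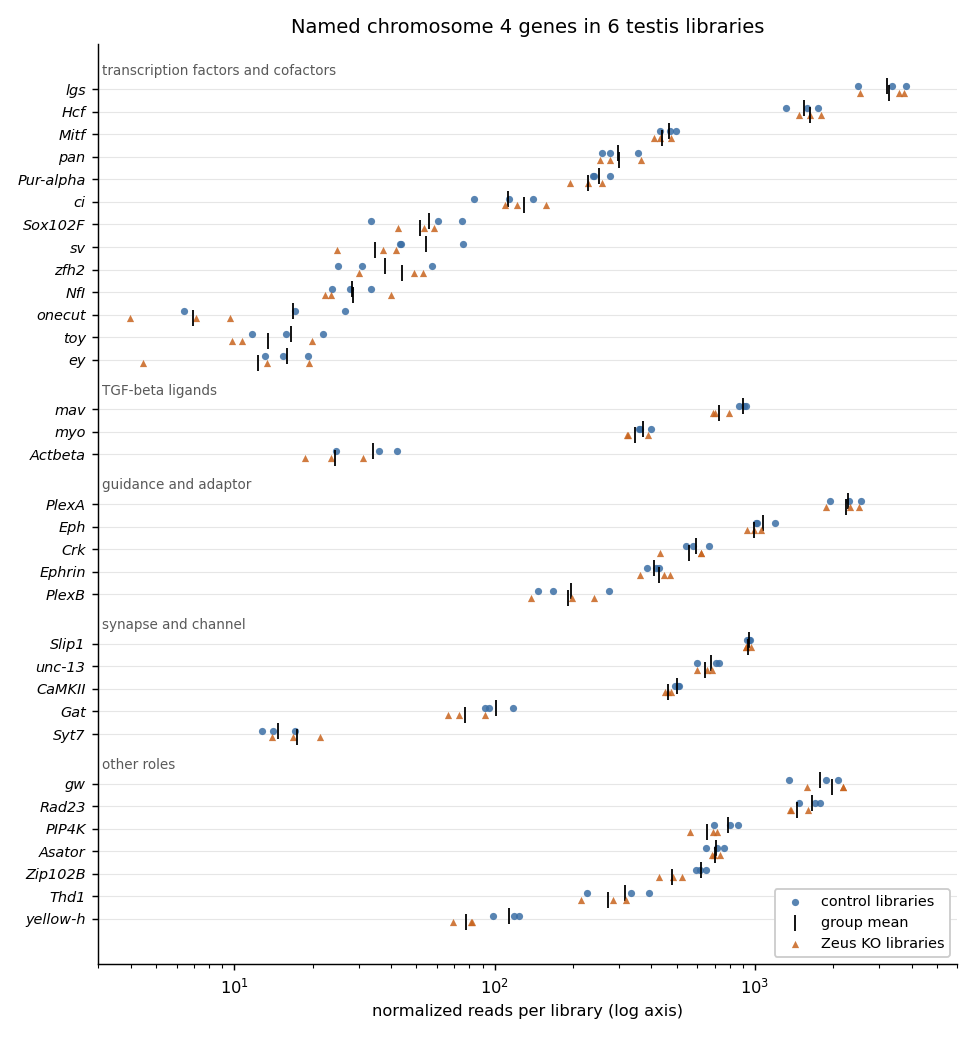
Normalized reads of each named gene in the 3 control libraries (circles) and the 3 Zeus KO libraries (triangles), on a log axis, with the group means as bars, ordered by role and control mean. The groups stand apart in 5 genes, *mav*, *Zip102B*, *yellow-h*, *CaMKII* and *sv*, and the libraries overlap in the other 28.

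Of 13 transcription factors and cofactors, 8 had a log2 fold change below 0, with a median of -0.06, and none had an unadjusted p under 0.05. The most abundant of all named genes by group mean was *lgs* (legless), the BCL9-type adaptor that links Armadillo to Pygopus in Wnt signalling. It held 3816, 2496 and 3368 normalized reads in the control libraries and 2534, 3562 and 3744 in those of *Zeus* KO. The lowest library of either group was far below the other two, and the log2 fold change was 0.03 (SE 0.171, adjusted p = 0.958), which turned to -0.15 without control library b, to -0.08 without *Zeus* KO library c and to -0.04 without *Zeus* KO library b. Its partner *pan*, the fly TCF, had a log2 fold change of 0.0041 (SE 0.167). The Gli-type effector of Hedgehog signalling, *ci*, held 140.7, 83.5 and 113.2 normalized reads in control and 109.2, 157.4 and 122.3 in *Zeus* KO, and these ranges overlapped.

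The Pax gene *sv* (shaven), a relative of Pax2, held 43.7, 75.7 and 43.4 normalized reads in control. In *Zeus* KO it held 24.9, 41.8 and 37.2, all below control. The log2 fold change was -0.62 (SE 0.290, adjusted p = 0.279), at the 8.6th percentile of genes of similar level. It was -0.36 without control library b and -0.40 without *Zeus* KO library a. The exons of *sv* overlap those of *Cals* on the other strand, and whether the counting used strand is not given in the sources used here. The homeodomain gene *onecut* held 26.6, 6.4 and 17.1 normalized reads in control and 7.1, 9.6 and 4.0 in *Zeus* KO. The groups overlapped because control library b was as low as *Zeus* KO, and the log2 fold change of -1.04 had a standard error of 0.538 (adjusted p = 0.328). It was -0.62 without control library a and -1.57 without control library b. The Pax6 genes *ey* and *toy*, which specify the eye, had log2 fold changes of -0.52 (SE 0.484) and -0.30 (SE 0.397), and that of *ey* lay between -0.92 and 0.024 over the alternatives. The remaining factors, *zfh2*, *Sox102F*, *Hcf*, *NfI*, *Mitf* and *Pur-alpha*, had log2 fold changes between -0.16 for *Pur-alpha*, which binds single-stranded nucleic acids, and 0.26 for *zfh2*, a zinc finger homeodomain gene. The exons of *zfh2* and *Thd1* overlap on opposite strands.

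All 3 named TGF-beta ligands had lower means in *Zeus* KO, with a median log2 fold change of -0.31. The gene *mav* (maverick), at 623219 to 626031 on the minus strand, held 926.1, 907.7 and 868.6 normalized reads in control. In *Zeus* KO it held 793.8, 689.8 and 701.7, so that the highest *Zeus* KO library was below the lowest control library. The log2 fold change was -0.31 (SE 0.102), with an unadjusted p of 0.0109 by limma's moderated test and an adjusted p of 0.125, between 0.067 and 0.394 over the alternatives. The muscle and glial ligand *myo* (myoglianin) had -0.11 (SE 0.123) and *Actbeta*, the activin ligand, -0.47 (SE 0.303), each with overlapping groups. Among 7 further genes of activin and BMP-type signalling, receptors and Smads included, none was called and 5 had a log2 fold change above 0. The inhibitory Smad gene *Dad* had 0.34 (SE 0.134, adjusted p = 0.2046). The ligand gene *daw*, also of this list and not on chromosome 4, had -0.58 (SE 0.337, adjusted p = 0.384).

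The 5 genes of axon guidance and its adaptor had a median log2 fold change of -0.02, and the groups overlapped in each. The semaphorin receptor gene *PlexA* held 2554, 1944 and 2308 normalized reads in control and 1879.7, 2325 and 2522 in *Zeus* KO. Its log2 fold change was -0.02 (SE 0.131, adjusted p = 0.960), and the sign turned without *Zeus* KO library a (0.10), without control library a (0.07) and with quantile normalization (0.015). For *PlexB*, the receptor of another semaphorin class, the value was -0.01 (SE 0.247). The receptor tyrosine kinase gene *Eph* had -0.12 (SE 0.105) and the gene of its ligand, *Ephrin*, 0.05 (SE 0.127). The SH2 and SH3 adaptor gene *Crk* held 543.5, 663.8 and 580.4 normalized reads in control and 622.4, 432.7 and 618.0 in *Zeus* KO. Only *Zeus* KO library b lay below the control range, and the log2 fold change was -0.11 (SE 0.1502). Of 8 partners of the plexins in a separate list, the semaphorin genes and *Mical* among them, none was called.

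Among 5 genes known from the synapse, 4 had a log2 fold change below 0, and the median was -0.07. The kinase gene *CaMKII* held 510.5, 491.7 and 508.0 normalized reads in control and 475.0, 452.0 and 462.5 in *Zeus* KO. The groups did not overlap, but the difference was small, with a log2 fold change of -0.12 (SE 0.102, adjusted p = 0.579). The GABA transporter gene *Gat* held 91.7, 118.1 and 94.8 normalized reads in control and 72.8, 66.4 and 91.7 in *Zeus* KO, and its highest *Zeus* KO library was level with the lowest control library. Its log2 fold change was -0.40 (SE 0.191, adjusted p = 0.286). The vesicle priming gene *unc-13* had -0.07 (SE 0.114) and *Slip1*, whose product binds the Slowpoke potassium channel, -0.01 (SE 0.0924). The calcium sensor gene *Syt7* had 0.22 (SE 0.333) on 11 to 19 whole reads per library. Of 11 neuron marker genes in the table, none at 0, 1 was called higher (*brp*, 0.73, adjusted p = 0.0464) and none lower. Their summed reads lay between 1161 and 1311 per library in control, and between 1293 and 1381 in *Zeus* KO, and their part in the values of the synapse genes was not tested.

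Of the other 7 named genes, 6 had a log2 fold change below 0, with a median of -0.20. The zinc transporter gene *Zip102B*, at 310930 to 314087 on the minus strand, held 614.9, 648.4 and 592.3 normalized reads in control. In *Zeus* KO it held 523.0, 429.5 and 483.7, so that the groups stood apart. The log2 fold change was -0.37 (SE 0.113), with an unadjusted p of 0.0066 by limma's moderated test and an adjusted p of 0.0906, between 0.0545 and 0.352 over the alternatives. Its neighbour *Rad23*, at 308093 to 310822 on the plus strand, had -0.19 (SE 0.108), with 1479, 1776 and 1707 normalized reads in control and 1601, 1364.5 and 1379.5 in *Zeus* KO. Here *Zeus* KO library a lay within the control range.

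The yellow family gene *yellow-h*, at 227922 to 230428 on the plus strand, held 118.3, 98.9 and 123.7 normalized reads in control and 81.7, 81.4 and 69.1 in *Zeus* KO. The groups stood apart, and the log2 fold change was -0.55 (SE 0.173), with an unadjusted p of 0.00869 by limma's moderated test and an adjusted p of 0.108, between 0.0766 and 0.347 over the alternatives. An annotated antisense RNA overlaps its exons. The lipid kinase gene *PIP4K*, whose exons overlap *CG33521* on the other strand, had -0.26 (SE 0.126, adjusted p = 0.285). The thymine DNA glycosylase gene *Thd1* had -0.20 (SE 0.205) and the tau tubulin kinase gene *Asator* -0.0034 (SE 0.105).

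The gene *gw* encodes GW182, which binds Argonaute 1 in microRNA silencing and recruits the CCR4–NOT complex, of which Caf40 is a subunit. It held 2094, 1354 and 1877 normalized reads in the control libraries and 1579, 2185 and 2184 in those of *Zeus* KO. It was the named gene highest among genes of similar level, yet the groups overlapped and the log2 fold change of 0.17 (SE 0.168, adjusted p = 0.645) turned to -0.02 without control library b. Of 12 genes for its partners, 9 were tested and none was called, with a median of 0.05. These included *AGO1* at 0.15 (SE 0.106) and *Caf40* at -0.06 (SE 0.100).

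The libraries differed within the groups in a way that many named genes shared. For each gene, the log2 value of a library was set against the gene's mean over the 6 libraries. The median of these deviations over the 33 named genes was 0.15, -0.000078 and 0.07 in control libraries a, b and c, and -0.14, -0.09 and 0.07 in *Zeus* KO libraries a, b and c. Of the 33 genes, 28 lay below their own mean in *Zeus* KO library a and 23 in library b, but 10 in library c. The medians of the groups thus overlapped, since *Zeus* KO library c lay level with control library c and above control library b. Over all tested genes, the same medians lay between 0.0017 and 0.0063. The 44 other tested genes of chromosome 4 had a partly similar profile to the named ones. In control library a, 40.9% of them lay below their own mean, against 21.2% of the named genes. In *Zeus* KO library a these shares were 65.9% and 84.8%. The medians of the 44 other genes were 0.034, -0.0026 and 0.083 in control libraries a, b and c. In *Zeus* KO libraries a, b and c they were -0.11, -0.10 and 0.031.

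**Figure D3:**
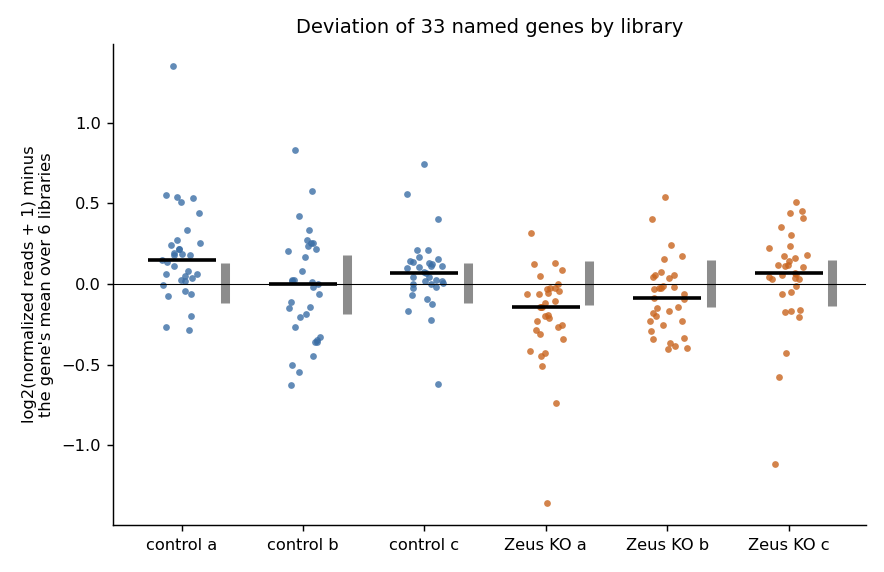
Deviation of each named gene from its own mean over 6 libraries on the log2(normalized reads + 1) scale (vertical), by library (horizontal), with the median as a black bar and the middle 50% of all tested genes as a grey bar to its right. The named genes were mostly low in Zeus KO libraries a and b, but not in Zeus KO library c, whose median of 0.07 lay above that of control library b.

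After these values had been seen, the genes in which control library b and *Zeus* KO library a were each the lowest of their group were counted. They numbered 11 of the 33, *lgs*, *gw*, *PlexA* and *Hcf* among them, against 23.7% of all tested genes. The reverse, each the highest of its group, was found in 4 of 33, against 23.3% of all tested genes. The named list did not stand out on its chromosome. Of the 44 other tested genes of chromosome 4, 17 (38.6%) had the first pattern and 4 (9.09%) the reverse. For *Hcf*, a chromatin cofactor, control library b and *Zeus* KO library a held 1312 and 1472 normalized reads. The other 4 libraries held between 1581 and 1793. The summed reads of 8 early germline markers were also lowest in these libraries of each group, at 7883 and 7379, against 8313 to 9413 in the others. Of these 8, 4 had each library lowest of its group. The sums of 8 cyst cell markers were lowest there too, at 1995 and 2019 against 2302 to 2377, again with 4 of the 8. Also lowest of their group there were the sums of the tested partners of the plexins and of *gw*. The same held for the tested muscle and neuron markers and the lists of Wnt, Hedgehog and activin signalling. The summed reads of the 3 solved genes of the 10 spermatid markers were highest in these libraries, at 15224 and 14917 against 11709 to 12334. Of these 3, 2 had each library highest of its group. *fzo* was instead lowest of its group in *Zeus* KO library a, at 3718 against 3909 and 3960. The sums of the 7 solved seminal fluid markers were likewise highest of their group in these libraries, at 33282 and 23856. Of these 7, 6 had each library highest of its group. Of 11 spermatocyte markers, 4 had the first pattern and 3 the reverse. The named genes with the 2 patterns also differed in annotated exon length. It ran from 4336 bases (*Sox102F*) to 22598 (*unc-13*) in the 11 with the first pattern. In the 4 with the reverse it ran from 1357 (*Crk*) to 3044 (*Zip102B*). Long genes such as *zfh2* (12424) and *Asator* (9018) had neither pattern. The part of length or of these cell types in the values of the named genes was not tested. In whole testes fewer cells of a type and less RNA per cell cannot be told apart.

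Over 77 tested genes of chromosome 4 the median log2 fold change was -0.09, with 54 genes below 0, and it was -0.16 without *Zeus* KO library c, -0.14 without control library b, -0.048 without *Zeus* KO library a and -0.051 without *Zeus* KO library b. The 44 tested genes outside the named list had a median of -0.07, with 29 below 0. The medians of chromosomes X, 2L, 2R, 3L and 3R lay between -0.01 and 0.02, and that of the 13 genes of the Y was -0.19. An unadjusted p under 0.05 was found for 13 of the 77 genes, of which 11 were lower in *Zeus* KO. That is 16.9%, against 18.9% of all tested genes.

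Of the other chromosome 4 genes, 2 were called, both lower in *Zeus* KO, where 1.9% of all tested genes are called lower. The gene *apolpp*, which encodes the apolipoprotein of the lipid carrier lipophorin made by the fat body, lies at 1060969 to 1077273 on the plus strand. It fell from 2630.3, 2145 and 2640.1 normalized reads in control to 1171, 1245 and 1195 in *Zeus* KO, a log2 fold change of -1.03 (SE 0.105, adjusted p = 9.91e-05). *CG32006* at 150764 to 153538 fell from 76.7, 95.01 and 75.02 to 39.1, 34.3 and 37.2 normalized reads, a log2 fold change of -1.13 (SE 0.201, adjusted p = 0.00589). The groups stood far apart in both. *dati*, a zinc finger gene, had -0.90 (SE 0.529) with overlapping groups. In the other direction, *CG31999* had 0.55 (SE 0.138, adjusted p = 0.0420), under the fold limit, and *CG32017* had 0.26 (SE 0.308). The muscle gene *bt*, which encodes Projectin, held 1295, 862.8 and 1142 normalized reads in the control libraries and 1310, 1722 and 1693 in those of *Zeus* KO, a log2 fold change of 0.53 (SE 0.154, adjusted p = 0.0817). The 10 tested muscle markers, none at 0, had summed reads of 12293 to 15770 per library in control and 17752 to 19814 in *Zeus* KO, with 3 called higher and 1 lower, and their part in the value of *bt* was not tested.

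**Figure D4:**
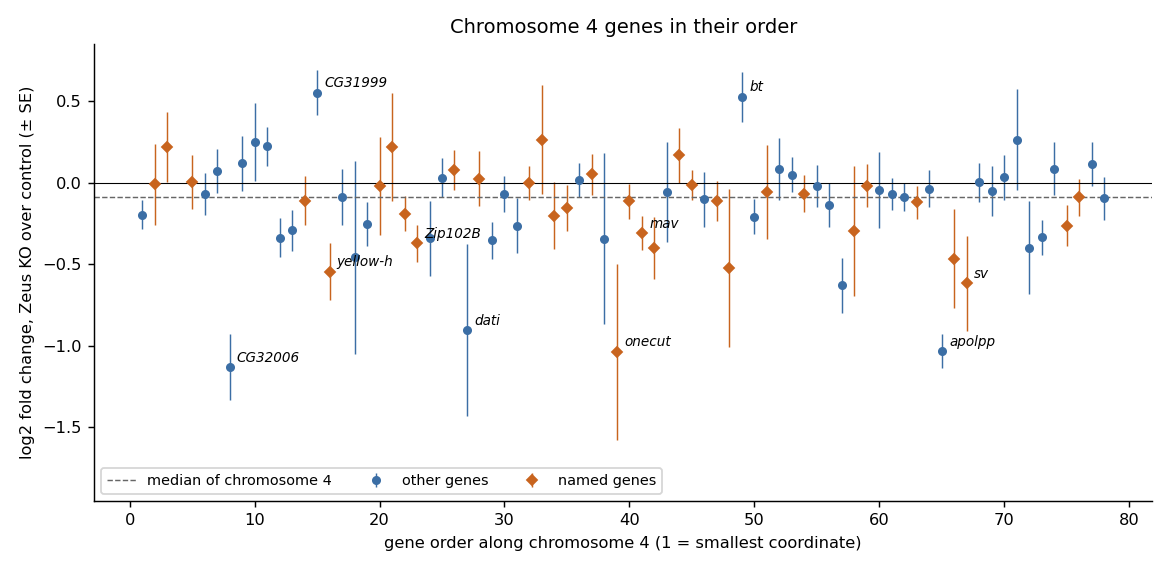
Fitted log2 fold change (Zeus KO against control) on the log2(normalized reads + 1) scale, with standard errors, for 77 tested genes of chromosome 4 in their order along the chromosome, named genes as diamonds and others as circles. Values below 0 are spread along the whole order, the median is -0.09 (dashed), and the called genes are *apolpp* and *CG32006*.

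Of 6 genes whose products act on the fourth chromosome, 5 were tested and none was called. All 5 had a log2 fold change above 0, with a median of 0.13. The gene of HP1a had 0.13 (SE 0.106), and *egg*, the smallest, had 0.06 (SE 0.188). The largest were *Su(var)3-7* at 0.24 (SE 0.163) and *G9a* at 0.24 (SE 0.156). *Pof*, among the genes that were not solved, had group means of 17029 normalized reads in the control libraries and 17278 in those of *Zeus* KO and was not tested. The 13 genes of the Wnt pathway and the 9 of the Hedgehog pathway outside chromosome 4, the partners of *pan*, *lgs* and *ci*, had medians of 0.06 and 0.14 with none called. Among tissues that can be carried over with the testis, the 8 gut markers, 5 of them called lower and 1 higher, had summed reads of 24349 to 24836 per library in control and 11038 to 13265 in *Zeus* KO. The 7 solved of 13 seminal fluid markers had 26047 to 33282 and 15965 to 23856. Their part in the values of the named genes was not tested.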

How the data were processed

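Poly(A) RNA of 3 *Zeus* KO and 3 control libraries of whole testes was sequenced. The authors used STAR, with its default settings, for alignment to dm6, and featureCounts to assign reads to genes. Tool versions, annotation release and strand setting are not given in the sources used here. The deposited signal of a gene is a group mean of reads scaled by the size factor of each library, with no correction for length. Further columns of the table hold the authors' own fold changes, p-values and calls, and were not used. The FastQC summary was not used, since its row names match no label.

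The whole reads of each library were solved from the group means, first within 0.6 and, where that gave none, within 5 units of the last of 15 digits. The wider limit was added after it was seen that some means had no solution within the first. Log2(normalized reads + 1) was tested with limma 3.58.1 in R 4.3.3, with a trend and Benjamini-Hochberg adjustment, for 11164 genes with a mean of the groups of at least 1. Fold changes are on that scale, where the pseudocount shrinks differences of weakly expressed genes. A count model was not run on the solved reads. Both the solving step and the fit were tested on simulated data. Positions and exon lengths came from Ensembl release 115, where 90 genes of the table have no position.

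The members and the lists were chosen with earlier results of these data known. Values are given in full for members with an unadjusted p under 0.05, groups that do not overlap, a percentile under 5 or over 95, or one of the 3 largest control means, and for some others that are mentioned beside them. Of the other chromosome 4 genes, those called and the 3 largest log2 fold changes of each direction are named. Alternatives were other pseudocounts, filters and normalizations, no trend, other numbers of neighbours and leaving out each library. A planned search of promoters for the motif of the study was not run, and no sequence was used here.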

Additional observations from a re-analysis of the deposited data

How the results depend on the processing

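No named gene was called under any alternative, and none had an adjusted p under 0.05. With 1 library left out, between 297 and 557 genes were called across the table, 165 to 303 higher and 129 to 279 lower, and between 3 and 6 named genes had an unadjusted p under 0.05. The median log2 fold change of the named genes was then between -0.16 and -0.036, and that of chromosome 4 between -0.16 and -0.048. The number of named genes below 0 was then between 19 and 27. The sign of 12 named genes turned under at least 1 alternative. Among those described in full these were, with 1 library left out, *lgs* (0.03, between -0.15 and 0.20), *gw* (0.17, between -0.016 and 0.32) and *PlexA* (-0.02, between -0.13 and 0.10), and *PlexA* also with quantile normalization (0.015). The others were *ey*, *PlexB*, *pan*, *Crk*, *Sox102F*, *Ephrin*, *Hcf*, *NfI* and *Asator*. The other pseudocounts, filters and normalizations left the median of the named genes between -0.12 and -0.11 and the called genes between 427 and 465, and dropping the fold limit gave 563. With 200 or 1000 neighbours no percentile moved by 10 or more. No paired analysis was possible because the solved libraries carry no replicate number. Standard errors were larger for the named genes under 100 normalized reads.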
